A study of Mus musculus with 12 samples.

Results

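The genes described here encode the regulatory and pointed-end proteins of the cardiac thin filament. They are 10 of the 23337 genes in the deposited count tables and were listed by name: the troponin I genes Tnni1 and Tnni3, the troponin T genes Tnnt1 and Tnnt2, the troponin C gene Tnnc1, the tropomyosin genes Tpm1, Tpm2 and Tpm3, and the pointed-end genes Tmod1 (tropomodulin 1) and Lmod2 (leiomodin 2). All 10 had counts in the tables, and together they took 2.49% to 3.79% of the counts of a sample.

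RNA was sequenced from cardiomyocytes (CMs) of mice on a mixed genetic background, in 4 groups of 3 samples. Srf encodes serum response factor. It was flanked by loxP sites on both chromosomes in KO mice (Srf F/F) and on 1 of them in CTRL mice (Srf F/+), whose CMs keep an intact allele. All 4 groups received an adeno-associated virus expressing Cre under the cardiac troponin T promoter at a low dose that reaches scattered CMs, and all carried a Cre-inducible fluorescent reporter by which the CMs were sorted. Neonatal KO mice and their CTRL got the virus on postnatal day 1 (P1) and gave CMs on P14. For adult KO and its CTRL the days were P60 and P90. The study's text gives 3 hearts per group for sorted CMs at these ages, and the labels tie no sample to a heart, so p-values measure the spread between these samples. Counts come from sorted cells in bulk, in which fewer cells of a type and less RNA per cell cannot be told apart.

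The thin filament is a double strand of actin with tropomyosin lying along it and a troponin complex at regular steps. Troponin C binds calcium, troponin I holds the filament off until it does, and troponin T ties both to tropomyosin. Mouse hearts use the slow skeletal troponin I gene Tnni1 before birth and replace it with the cardiac gene Tnni3, one of the classic isoform switches of CM maturation. At the slow-growing pointed end, Tmod1 caps the filament, while Lmod2 favours its elongation. SRF is a transcription factor that binds a motif called the CArG box and is known for driving genes of muscle actins and of proteins that act on actin.

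Total counts per sample ran from 9740389 to 23103460, and a floor of 3 counts corresponded to 0.138 to 0.326 CPM (counts scaled to library size, with TMM factors over all 12 samples). This floor covers counting error only, since the amplified cDNA carried no molecular identifiers. The targeted gene matched the labels: Srf was 49.4 to 64.0 CPM in P14 CTRL and 9.75 to 32.1 CPM in P14 KO, and 59.1 to 81.1 CPM in P90 CTRL and 28.1 to 32.9 CPM in P90 KO. Its mean in KO was 40.7% of that in CTRL at P14 and 42.5% at P90. In neonatal KO the edgeR test used below did not call Srf (log2 fold change -1.30 ± 0.36 SE, adjusted p = 0.0628), while DESeq2 did (0.00288). In adult KO edgeR called it (-1.23 ± 0.13, adjusted p = 0.00347). P14 KO replicate 3 stood apart among its group in Srf (9.75 CPM). Y-linked counts were high in that sample (4005), in P14 CTRL replicate 1 (4756) and in P90 CTRL replicate 3 (3299), at most 2 in the other samples, and 0 in all P90 KO samples, and their part in the results was not tested. The 6 CM markers Myh6, Actn2, Ttn, Ryr2, Pln and Myl2 were abundant in every sample, at a summed 73010 to 86020 CPM in P14 CTRL and 52640 to 61690 CPM in P14 KO, and 75470 to 81630 CPM in P90 CTRL and 58940 to 63630 CPM in P90 KO. This sum, most of it Myh6, did not overlap between KO and CTRL at either stage, but the markers did not move as a set. Myh6 was lower in every KO sample than in any CTRL sample of its stage and Actn2 higher. Ttn, Ryr2, Pln and Myl2 overlapped at P14, while at P90 Ttn and Ryr2 were lower in KO without overlap. Their part in the results below was not tested. Leukocyte, erythroid and fast skeletal muscle marker lists each summed to at most 10.1 CPM in any sample. The erythroid sum was Alas2 alone, since Hba-a1 was at 0 CPM in all samples and Hbb-bs was not among the deposited genes.

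Promoter sequences are shown for the gene that rose most in neonatal KO (Tnni1), for the genes whose RNA fell most there (Tnnc1, Tpm1), for the main troponin T gene (Tnnt2) and for the gene called in adult KO (Lmod2). Each line holds the 250 bases before a RefSeq transcript start (GRCm38.p6, the assembly that mm10 names), read 5′ to 3′ on the gene's strand, and capitals mark motif matches.
Tnni1, chr1:135799171-135799420, plus strand: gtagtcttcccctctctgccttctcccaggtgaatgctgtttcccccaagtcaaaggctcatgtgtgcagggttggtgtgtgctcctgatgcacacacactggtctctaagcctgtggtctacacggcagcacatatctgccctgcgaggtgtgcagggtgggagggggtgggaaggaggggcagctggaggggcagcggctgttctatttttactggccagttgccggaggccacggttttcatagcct
Tnnc1, chr14:31208062-31208311, plus strand: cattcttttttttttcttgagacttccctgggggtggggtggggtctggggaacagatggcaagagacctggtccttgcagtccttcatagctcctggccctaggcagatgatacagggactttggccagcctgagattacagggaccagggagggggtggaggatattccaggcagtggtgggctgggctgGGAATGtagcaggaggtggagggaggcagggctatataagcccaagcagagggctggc
Tpm1, chr9:67049214-67049463, minus strand: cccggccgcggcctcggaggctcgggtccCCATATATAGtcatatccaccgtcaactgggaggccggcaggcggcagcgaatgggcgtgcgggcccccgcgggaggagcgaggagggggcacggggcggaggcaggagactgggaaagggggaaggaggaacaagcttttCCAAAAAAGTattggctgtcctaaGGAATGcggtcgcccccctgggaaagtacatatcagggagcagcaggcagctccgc
Tnnt2, chr1:135836084-135836333, plus strand: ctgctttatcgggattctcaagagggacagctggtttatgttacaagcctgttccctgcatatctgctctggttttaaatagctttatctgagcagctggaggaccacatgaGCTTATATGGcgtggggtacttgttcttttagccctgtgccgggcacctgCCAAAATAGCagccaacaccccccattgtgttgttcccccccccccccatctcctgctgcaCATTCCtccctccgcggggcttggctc
Lmod2, chr6:24597521-24597770, plus strand: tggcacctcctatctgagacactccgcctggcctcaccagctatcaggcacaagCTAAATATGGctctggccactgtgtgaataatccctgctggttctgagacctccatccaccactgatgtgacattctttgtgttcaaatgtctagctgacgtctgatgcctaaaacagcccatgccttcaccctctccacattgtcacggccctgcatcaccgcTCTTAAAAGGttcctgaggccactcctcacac
The motifs were searched on both strands: the CArG box, exact or with a single mismatch, and CATTCC, the core of the MCAT element known from cardiac troponin T promoters. The 10 genes had 13 such windows, since Tnni1, Tnnt2 and Tpm3 each have an additional start. An exact CArG box was found in 0 of the 13 windows, against 1.47% of all 32851 promoter windows. A CArG box with a single mismatch was found in 5 of the 13 (38.5%, against 17.5% of all windows), in Lmod2, Tnnt2, Tpm1 and both windows of Tpm3. The MCAT core was found in 4 of the 13 (30.8%, against 12.6% of all), in Tnnc1, Tnnt2, Tpm1 and Tmod1. No match of one motif overlapped a match of the other. Tpm1 held CArG matches from -221 and -80 and the MCAT core from -56, counted from the transcript start. Neither motif was found in any window of Tnni1, Tnni3, Tnnt1 or Tpm2. These matches describe letters within these windows and are not measured binding sites.

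The levels of the 10 genes spanned more than 4 orders of magnitude, a span that rests on Tnni1 at P90, near the floor. Per length of exon the order was led by the adult-type isoforms. That order depends on the summed exon length: in plain CPM, Tpm1 led P14 CTRL, at a mean of 14494 against 10053 for Tnnt2. In P14 CTRL, the mean level in CPM per kb of exon was 8427 for Tnnt2 and 7237 for Tnni3, whose ranges overlapped, followed by Tpm1 (4420) and Tnnc1 (3784), which overlapped as well. The pointed-end genes came next at 197 CPM per kb for Tmod1 and 137 CPM per kb for Lmod2, with no overlap. Tnni1 (54.5) and Tnnt1 (30.1) overlapped each other, and so did Tpm2 (4.05) and Tpm3 (3.97), the lowest. P14 KO kept Tnnt2, Tnni3, Tpm1 and Tnnc1 at the head of the order, at 7446, 5038, 2539 and 1365 CPM per kb with no overlap between neighbours, but Tnni1 was the fifth at 359 CPM per kb, above Lmod2 (205) and Tmod1 (199), which overlapped. In P90 CTRL, Tnnc1 (4140 CPM per kb) was above Tpm1 (2995) without overlap, Lmod2 (166) was above Tmod1 (159), and Tnni1 was last at 0.287 CPM per kb. In P90 KO, Tnnc1 (3014) and Tpm1 (2704) overlapped, Lmod2 (236) lay above Tmod1 (160) with no overlap, and Tnni1 was again last at 0.282 CPM per kb.

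**Figure D1:**
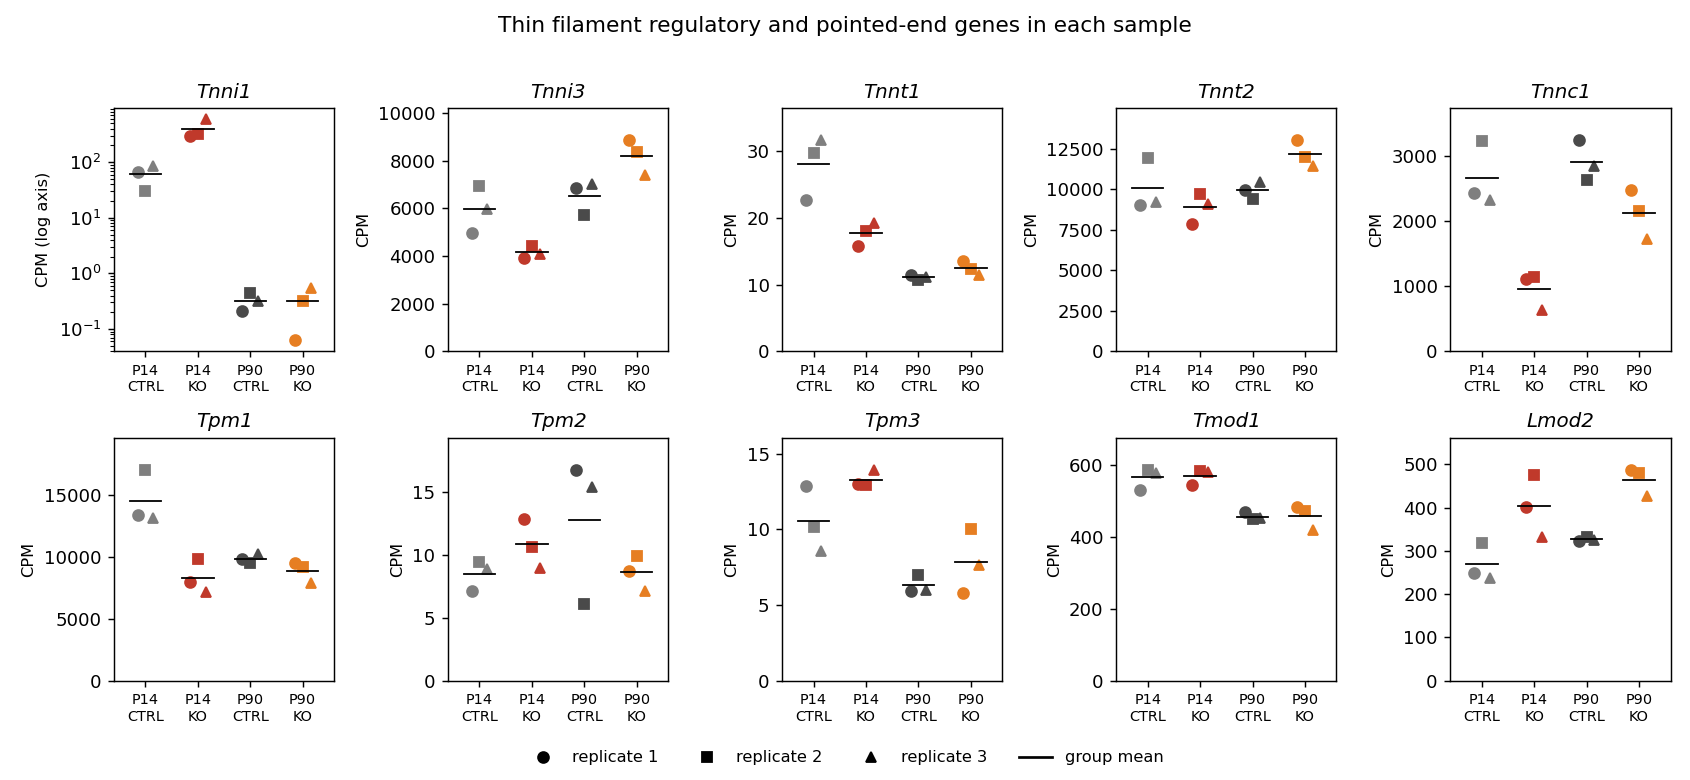
Each panel plots 1 gene in CPM against the 4 groups, with 1 marker shape per replicate and a black line for the group mean (n = 3). The axis starts at 0 except for Tnni1, which has a log axis. Tnni1 lies at 294 to 590 CPM in P14 KO above 30.9 to 84.9 CPM in P14 CTRL and under 1 CPM at P90, Tnnc1 and Tpm1 are lower in all P14 KO samples than in any P14 CTRL sample, and Tmod1 overlaps between KO and CTRL at both stages.

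In neonatal KO, Tnni1 rose 6.58-fold, while Tnnc1 fell to 0.360 of CTRL, Tnnt1 to 0.629 and Tpm1 to 0.573, by edgeR's fitted fold changes. These were 4 of the 10 genes at an adjusted p under 0.05, 1 up-regulated and 3 down-regulated. Of all 12546 genes tested, 8.59% passed, 3.99% up-regulated and 4.6% down-regulated. The median log2 fold change was -0.09 over the 10 genes and 0.00 over all genes. KO and CTRL samples did not overlap for 7 of the 10, Tnni1, Tpm3 and Lmod2 higher and Tnni3, Tnnt1, Tnnc1 and Tpm1 lower, against 32.7% of all genes tested, 16% higher and 16.7% lower. Leaving out 1 library at a time, Tnni1 passed in all 6 fits. Tnnc1 passed in 4 of 6 and was lost without P14 KO replicate 1 (adjusted p = 0.0532) and without P14 KO replicate 2 (0.0581). Tpm1 and Tnnt1 passed only without P14 CTRL replicate 1 (0.0449 and 0.0261). The number of the 10 genes that passed was 5 without P14 CTRL replicate 1, 3 without P14 CTRL replicate 2, 2 without P14 CTRL replicate 3, 1 without P14 KO replicate 1, 1 without P14 KO replicate 2 and 2 without P14 KO replicate 3.

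In adult KO, Lmod2 was the 1 gene of the 9 tested that passed, 1.43-fold higher than in CTRL (adjusted p = 0.0485). Over all 11808 genes tested, 0.39% passed, 0.237% up-regulated like Lmod2 and 0.152% down-regulated, and the median log2 fold change was 0.16 over the 9 genes and 0.01 over all. Tnni1 was too low at P90 to be tested. Samples of KO and CTRL did not overlap for 4 of the 10 genes, Tnni3, Tnnt2 and Lmod2 higher and Tnnc1 lower, against 21.6% of all genes tested, 10.3% higher and 11.2% lower. The Lmod2 call held in 1 of the 6 fits that leave out a library, without P90 KO replicate 3 (0.0364). It was lost without P90 CTRL replicate 1 (0.0928), 2 (0.0920) or 3 (0.161), without P90 KO replicate 1 (0.0877) or 2 (0.225), and in a fit of all 12 samples together (0.216). With DESeq2, Tnnc1 also passed (0.0323), and with no filter on low counts Tnnc1 (0.00522) and Tpm2 (0.0370) did.

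Between P14 and P90 in CTRL, 5 of the 10 genes fell and 0 rose: Tnni1, Tnnt1, Tpm1, Tpm3 and Tmod1. Of all 12294 genes tested, 29.3% passed, 14.5% higher and 14.9% lower at P90, and the median log2 fold change was -0.16 over the 10 genes and -0.01 over all. Samples of the stages did not overlap for 6 of the 10, 5 lower and Lmod2 higher at P90, against 44.9% of all genes tested, 22.1% higher and 22.8% lower. Some marker sums of other cells were also lower at P90 without overlap. Fibroblast markers summed to 96.1 to 285 CPM in P14 CTRL and 44.7 to 63.3 CPM in P90 CTRL, though Dcn and Pdgfra overlapped. Smooth muscle and pericyte markers summed to 895 to 1383 CPM and 244 to 390 CPM. In that list Acta2 was lower without overlap, while Myh11, Tagln, Cnn1, Rgs5 and Pdgfrb overlapped. The endothelial sum overlapped, with Pecam1, Cdh5 and Emcn lower without overlap and Kdr overlapping. Of the atrial CM markers, Myl7, Sln and Myl4 were higher at P90 without overlap, while Nppa, Bmp10 and the sum of the list overlapped. The part of these cells in these results was not tested. The stages were counted in separate tables, so age cannot be told apart from other differences between them. Tnni1 and Tnnt1 passed in all 6 fits without a library and Tpm1 in 5, the exception being the fit without P90 CTRL replicate 2 (0.0532). Tpm3 passed only without P14 CTRL replicate 2 (0.0207) or 3 (0.0183), and Tmod1 only without P14 CTRL replicate 2 (0.0405). Without P14 CTRL replicate 2, Lmod2 passed too (0.0107), and without P90 CTRL replicate 2, Tpm2 did (0.0165). The number that passed was 3 without P14 CTRL replicate 1 or without any 1 of the P90 CTRL samples.

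**Figure D2:**
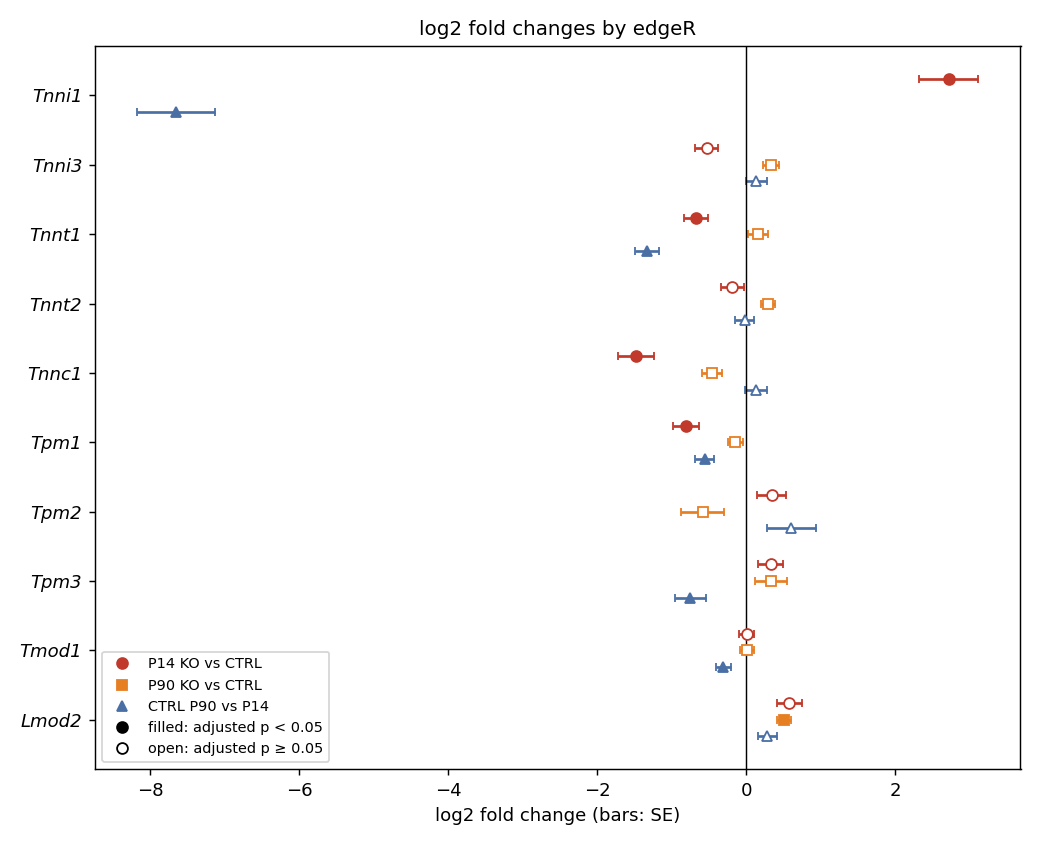
Points give edgeR log2 fold changes (x axis) with their SE for the 10 genes (y axis) in neonatal KO, adult KO and CTRL P90 against P14, n = 3 per group; filled points passed an adjusted p under 0.05. Tnni1 stands out on the right in neonatal KO (2.72) and on the left between the CTRL stages (-7.66), Tnnc1 is lowest in neonatal KO (-1.48), and Tmod1 lies near 0 in both KO comparisons.

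Tnni1, the slow skeletal and fetal troponin I gene (chr1:135799421-135810989, mm10), was 66.3, 30.9 and 84.9 CPM in P14 CTRL replicates 1 to 3 and 294, 315 and 590 CPM in P14 KO. Every KO sample was more than 3 times as high as the highest CTRL sample. The log2 fold change was 2.72 ± 0.40 (SE, adjusted p = 0.0116). At P90, the gene had 4 counts in each CTRL library (0.206 to 0.435 CPM) and 1, 7 and 7 counts in KO (0.0628 to 0.555 CPM), near the floor of 3 counts in both groups. Between the CTRL stages it fell by 7.66 ± 0.52 on the log2 scale (adjusted p = 5.32e-05), a value that rests on those few counts at P90. The neonatal minus adult KO effect was 2.69 ± 1.34 and did not pass with edgeR (adjusted p = 0.300), while DESeq2 called it (0.0423).

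Atrial CMs express some fetal-type isoforms, so atrial markers were set beside Tnni1. The sum of Myl7, Nppa, Sln, Bmp10 and Myl4 was 56.7 to 502 CPM in P14 CTRL and 305 to 1182 CPM in P14 KO, most of it Nppa, which ventricular CMs can also express. P14 KO replicate 3 had the highest Tnni1 of all samples, with Nppa at 296 CPM, Myl4 at 8.49 CPM, Myl7 at 0.0505 CPM and Sln and Bmp10 at 0 CPM. Myl4 was the 1 atrial marker of the 5 that did not overlap at P14, at 3.15 to 4.40 CPM in CTRL and 8.49 to 19.0 CPM in KO, and the part of atrial cells in the Tnni1 result was not tested. At P90, where Tnni1 was near the floor, Myl7 was higher, at 14.5 to 45.3 CPM in CTRL and 15.7 to 64.0 CPM in KO. The other P14 KO samples had Myl7 at 24.1 and 8.95 CPM, against at most 1.41 CPM in P14 CTRL.

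Tnni3, the cardiac troponin I gene of the adult heart (chr7:4518308-4522443), was the 1 gene of the 10 whose KO effect differed between the stages in the test of that difference. It was 4963, 6956 and 5971 CPM in P14 CTRL and 3918, 4442 and 4093 CPM in P14 KO, with every KO sample below every CTRL sample. At P90 it was 6861, 5712 and 7050 CPM in CTRL and 8878, 8373 and 7427 CPM in KO, with every KO sample above every CTRL sample. Neither difference passed on its own, at a log2 fold change of -0.53 ± 0.15 (adjusted p = 0.0698) in neonatal KO and 0.34 ± 0.11 (0.175) in adult KO. Their difference did: the neonatal minus adult KO effect was -0.85 ± 0.19 (adjusted p = 0.0437). Of the 10 genes, 1 was thus called, against 1.78% of all 12841 genes tested, 0.818% above 0 and 0.958% below 0. It held in 2 of the 12 fits without a library, those without P14 CTRL replicate 1 (0.0178) and P90 KO replicate 3 (0.0426). In the other 10 it ranged up to 0.123 and was lost without P14 CTRL replicate 2 (0.0675) or 3 (just over 0.05), P14 KO replicate 1 (0.0862), 2 (0.0694) or 3 (0.0778), P90 CTRL replicate 1 (0.0769), 2 (0.103) or 3 (0.0824), and P90 KO replicate 1 (0.123) or 2 (0.110). DESeq2 called the neonatal difference as well (0.00711).

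Tnnt2, which encodes the cardiac troponin T that anchors the complex to tropomyosin (chr1:135836386-135851736), was 9016, 11941 and 9203 CPM in P14 CTRL and 7844, 9725 and 9080 CPM in P14 KO, and the groups overlapped. It was 9925, 9395 and 10454 CPM in P90 CTRL and 13024, 11974 and 11402 CPM in P90 KO, with all KO samples higher. The log2 fold changes were -0.18 ± 0.16 (adjusted p = 0.530) in neonatal KO, 0.30 ± 0.09 (0.160) in adult KO and -0.01 ± 0.13 (0.942) between the CTRL stages. Tnnt2 lies 25.4 kb from Tnni1 on chromosome 1, with 1 gene between them.

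Tnnt1, the slow skeletal troponin T gene (chr7:4504663-4515975), lies 2332 bp from Tnni3 with no gene between them. Its levels were 22.8, 29.8 and 31.7 CPM in P14 CTRL and 15.9, 18.0 and 19.2 CPM in P14 KO. It fell in neonatal KO, by 0.67 ± 0.16 on the log2 scale (adjusted p = 0.0379), the opposite direction from Tnni1, the slow skeletal troponin I gene. P90 CTRL samples had 11.5, 10.8 and 11.2 CPM and P90 KO samples 13.6, 12.4 and 11.4 CPM, an overlapping pair of groups (0.16 ± 0.13, 0.585). From P14 to P90 in CTRL it fell by 1.33 ± 0.16 (adjusted p = 0.000624). The neonatal minus adult KO effect of -0.83 ± 0.20 did not pass with edgeR (0.0574) and passed with DESeq2 (0.00608) and without P14 CTRL replicate 1 (0.0220), where 2 of the 10 genes were called.

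Tnnc1, the gene for the calcium-binding subunit shared by cardiac and slow skeletal muscle (chr14:31208312-31211711), showed the largest decrease of the 10 in neonatal KO. It was 2430, 3232 and 2318 CPM in P14 CTRL and 1108, 1142 and 630 CPM in P14 KO. Every KO sample was below 0.5 of the lowest CTRL sample, and replicate 3 was lowest. That replicate also had the least Srf and the most Y-linked counts of its group, and their part was not tested. The log2 fold change was -1.48 ± 0.24 (adjusted p = 0.0148). In adult CMs the values were 3245, 2638 and 2848 CPM in CTRL and 2480, 2147 and 1730 CPM in KO, again with no overlap (-0.45 ± 0.13, adjusted p = 0.146). The neonatal minus adult KO effect was -1.01 ± 0.30 (0.0960; 0.0149 with DESeq2), and CTRL stages differed by 0.13 ± 0.15 (0.520).

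Tpm1 encodes alpha-tropomyosin, the main tropomyosin of the heart (chr9:67022593-67049213). P14 CTRL samples had 13340, 17027 and 13114 CPM and P14 KO samples 7973, 9849 and 7156 CPM, with no overlap. It fell by 0.80 ± 0.17 on the log2 scale (adjusted p = 0.0276) in neonatal KO. At P90 it was 9814, 9466 and 10185 CPM in CTRL and 9511, 9199 and 7886 CPM in KO, and the groups overlapped (-0.14 ± 0.10, adjusted p = 0.504). In CTRL it fell by 0.56 ± 0.12 from P14 to P90 (adjusted p = 0.00940), and the P14 KO samples overlapped the P90 CTRL samples. The neonatal minus adult KO effect was -0.65 ± 0.20 (0.102; 0.0164 with DESeq2). Since smooth muscle cells also carry Tpm1, their markers Myh11, Acta2, Tagln, Cnn1, Rgs5 and Pdgfrb were summed: 895 to 1383 CPM in P14 CTRL and 244 to 469 CPM in P14 KO. Most of that was Acta2, which immature CMs also express, at 795 to 1334 CPM in P14 CTRL and 184 to 382 CPM in P14 KO. Myh11 overlapped between P14 CTRL (8.17 to 32.8 CPM) and P14 KO (12.3 to 30.7 CPM), as did Tagln, Cnn1, Rgs5 and Pdgfrb. The part of smooth muscle cells in the Tpm1 result was not tested.

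Tpm2, the beta-tropomyosin gene (chr4:43514712-43523388), and Tpm3, the slow-muscle and cytoskeletal tropomyosin gene (chr3:90072651-90100902), stayed at or under 16.8 CPM in every sample. Tpm2 was 7.14, 9.45 and 8.89 CPM in P14 CTRL and 12.9, 10.6 and 8.94 CPM in P14 KO, and 16.8, 6.09 and 15.3 CPM in P90 CTRL and 8.73, 9.92 and 7.14 CPM in P90 KO. P90 CTRL replicate 2 stood apart from its group. The log2 fold changes of Tpm2 were 0.34 ± 0.20 (adjusted p = 0.319) in neonatal KO, -0.58 ± 0.29 (0.351) in adult KO and 0.61 ± 0.33 (0.191) between the CTRL stages. Tpm3 was 12.9, 10.2 and 8.60 CPM in P14 CTRL and 12.98, 12.92 and 13.95 CPM in P14 KO, and 5.93, 6.96 and 6.01 CPM in P90 CTRL and 5.78, 10.1 and 7.62 CPM in P90 KO. It fell by 0.75 ± 0.21 from P14 to P90 in CTRL (adjusted p = 0.0257). Its values are uncertain, because 23.2% of the 50-base windows in its transcripts also occur in transcripts of other genes, most often Tpm3-rs7. Of the other 9 genes, Tmod1 had the largest share of such windows, at 2.82%.

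Tmod1, which caps the pointed end (chr4:46039222-46116032), ranged from 421 to 588 CPM over all 12 samples. It was 530, 588 and 580 CPM in P14 CTRL and 546, 584 and 582 CPM in P14 KO, and 469, 449 and 453 CPM in P90 CTRL and 483, 473 and 421 CPM in P90 KO. The groups overlapped at both stages. Log2 fold changes were 0.01 ± 0.10 (adjusted p = 0.971) in neonatal KO and 0.01 ± 0.09 (0.964) in adult KO. From P14 to P90 in CTRL, Tmod1 fell by 0.31 ± 0.10 (adjusted p = 0.0467). Exons of Tmod1 share 1287 bp with Tstd2 on the opposite strand, and the strand setting of the counting is not given in the sources used here, so reads of the pair may be mixed.

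Lmod2, the leiomodin that lengthens thin filaments (chr6:24597771-24605414), was higher in KO than in CTRL in every sample at both stages. Its levels were 249, 319 and 238 CPM in P14 CTRL and 401, 475 and 332 CPM in P14 KO. At P90 they were 323, 333 and 324 CPM in CTRL and 488, 479 and 426 CPM in KO. The log2 fold change was 0.58 ± 0.17 in neonatal KO (adjusted p = 0.0698; 0.0163 with DESeq2) and 0.51 ± 0.09 in adult KO (0.0485). The neonatal minus adult KO effect was 0.08 ± 0.19 (adjusted p = 0.875), not detectable with this spread.

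Within each sample, shares of isoforms and ratios of subunits were computed from counts per kb of exon, which needs no scaling between libraries. Tnni1 made up 0.979%, 0.327% and 1.04% of troponin I RNA in P14 CTRL and 5.26%, 4.99% and 9.63% in P14 KO. Tnni3 thus remained the main troponin I RNA in each P14 KO sample. At P90 the share was at most 0.00563% in either group. The log2 ratio of troponin C to troponin T RNA was -1.13, -1.13 and -1.23 in P14 CTRL and -2.06, -2.33 and -3.09 in P14 KO. It was -0.85, -1.07 and -1.11 in P90 CTRL and -1.63, -1.72 and -1.96 in P90 KO, so troponin C was lower relative to troponin T in every KO sample at both stages. The mean differences were -1.33 and -0.76, and their difference was -0.57. A two-sided permutation test that shuffled KO and CTRL labels within each stage gave p = 0.455 for it. The reference of that test assumes no KO effect at either stage, so it cannot decide whether the KO effects are equal.

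The log2 ratio of Lmod2 to Tmod1 was -0.54, -0.34 and -0.74 in P14 CTRL and 0.10, 0.25 and -0.27 in P14 KO. In P90 CTRL it was 0.01, 0.11 and 0.06, and in P90 KO 0.56 in each of the 3 samples. The mean rise over CTRL was 0.57 in neonatal and 0.50 in adult KO, and CTRL rose by 0.60 from P14 to P90. The difference of the KO effects was 0.07 (p = 0.875 in the within-stage permutation test, which cannot decide whether these effects are equal). Troponin I against troponin T was -0.21 ± 0.12 (SD, n = 3) in P14 CTRL and -0.46 ± 0.07 (SD, n = 3) in P14 KO on the log2 scale, without overlap, and -0.07 ± 0.10 (SD, n = 3) and -0.03 ± 0.05 (SD, n = 3) at P90, with overlap.

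The minor isoforms Tpm2 and Tpm3 together stayed below 1% of tropomyosin RNA, taken as the sum of Tpm1, Tpm2 and Tpm3, in all samples. Tpm4 was not part of that sum and was higher than Tpm2 and Tpm3 in P14 CTRL, at a mean of 20.8 CPM per kb. Tpm2 made up 0.0920% ± 0.0121 (SD, n = 3) in P14 CTRL and 0.205% ± 0.0425 (SD, n = 3) in P14 KO, and Tpm3 0.0912% ± 0.0244 (SD, n = 3) and 0.201% ± 0.0391 (SD, n = 3). In mean CPM, Tpm1 was at 57.4% of CTRL in neonatal KO, Tpm2 at 127% with overlap and Tpm3 at 126% without. Tnnt1 made up 0.359% ± 0.0686 (SD, n = 3) of troponin T RNA in P14 CTRL, 0.254% ± 0.0171 (SD, n = 3) in P14 KO, 0.143% ± 0.00630 (SD, n = 3) in P90 CTRL and 0.131% ± 0.00264 (SD, n = 3) in P90 KO. All 7 quantities were without overlap between neonatal KO and CTRL, each with p = 0.1 in an exact two-sided permutation test, the smallest that 3 samples against 3 allow. With Benjamini-Hochberg adjustment over the 28 tests of these quantities, the smallest value was 0.156, so none passed. For the neonatal minus adult KO effect, the smallest possible p of the exact permutation test is 0.005. In exact permutation tests within each stage, the share of Tpm2 had p = 0.025 (adjusted 0.156). In the same exact permutation tests, the share of Tnni1 and the troponin I to troponin T ratio each had p = 0.035 (adjusted 0.156). The reference of these tests is no KO effect at either stage, so they cannot decide whether the KO effects differ. The Tnni1 difference of 5.845 percentage points came from 5.844 in neonatal KO and -0.00076 in adult KO.

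**Figure D3:**
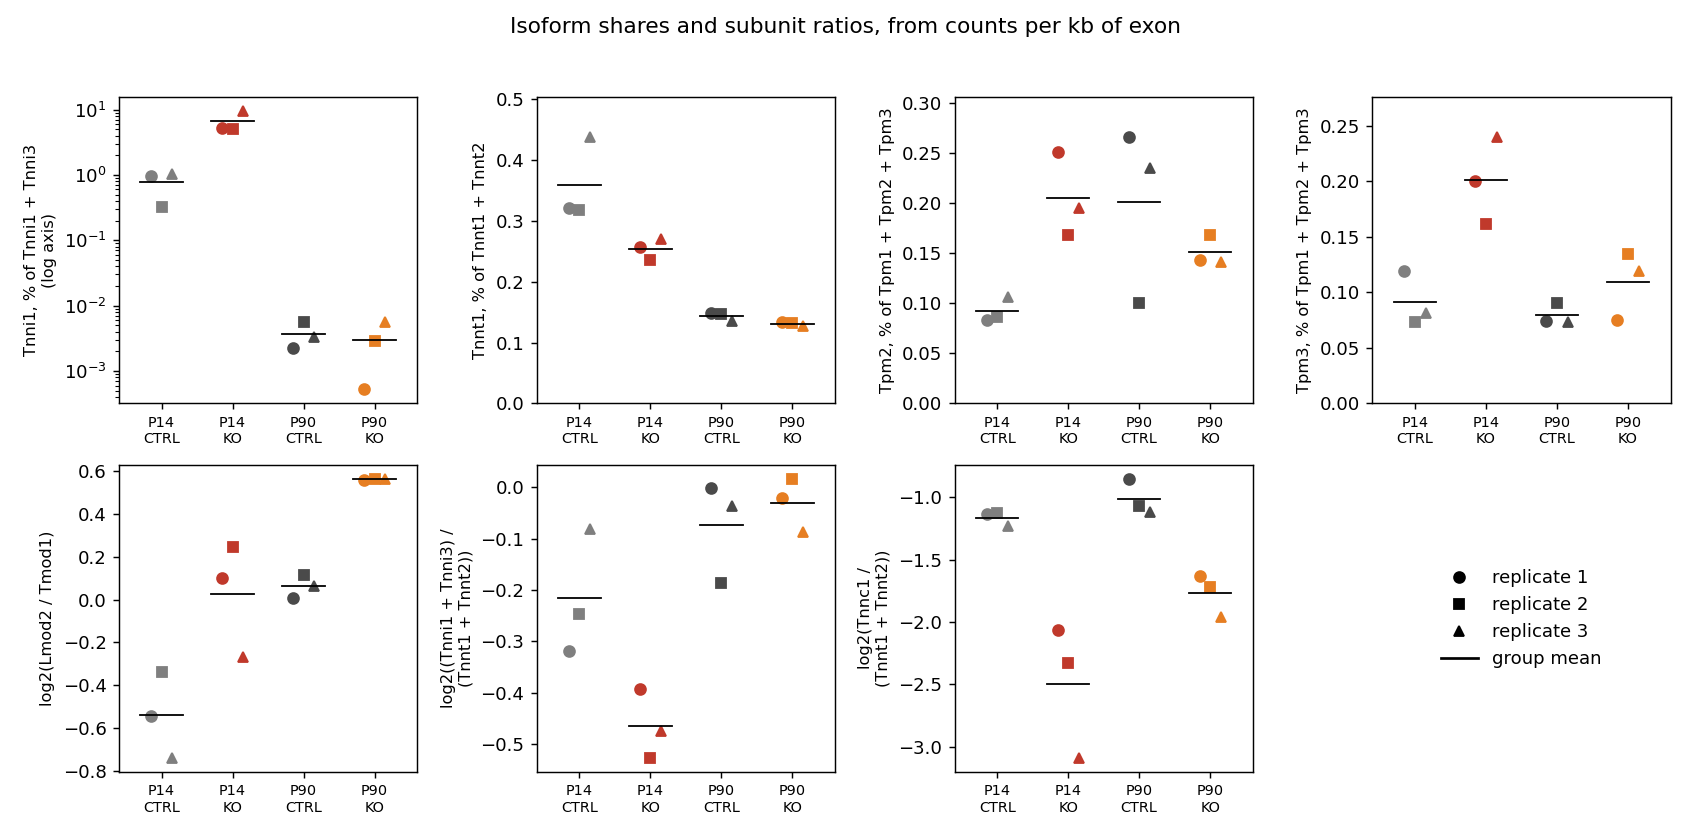
The 7 panels plot an isoform share (%) or a log2 ratio of RNAs per kb of exon against the 4 groups, with 1 marker shape per replicate and a black line for the mean; the Tnni1 share has a log axis. The Tnni1 share is 4.99% to 9.63% in P14 KO against 0.327% to 1.04% in P14 CTRL, troponin C to troponin T is lower in all KO samples at both stages, and Lmod2 to Tmod1 is higher in all of them.

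The other thin filament genes formed a list of 21 genes: muscle actins (Actc1, Acta1), skeletal and nonmuscle troponins, tropomyosin and pointed-end genes (Tnnc2, Tnni2, Tnnt3, Tpm4, Tmod2, Tmod3, Tmod4, Lmod1, Lmod3), barbed-end capping and nebulin-family genes (Capza1, Capza2, Capzb, Neb, Nebl, Nrap) and genes of actin assembly and turnover (Fhod3, Cap2, Cfl2, Wdr1). Of the 18 tested in neonatal KO, 5 passed (27.8%, against 8.59% of all genes), with a median log2 fold change of -0.22. Actc1, the cardiac actin gene, fell by 1.39 ± 0.24 (adjusted p = 0.0168) and Tmod4, a skeletal muscle tropomodulin, by 1.24 ± 0.21 (0.0153). Capzb, a subunit of the barbed-end cap, fell by 0.60 ± 0.11 (0.0186), and Wdr1, which helps to take filaments apart, by 0.54 ± 0.12 (0.0304). Nrap, a protein of forming myofibrils, rose by 0.75 ± 0.13 (0.0153). Without 1 library the number called was 4 without P14 CTRL replicate 1, 5 without replicate 2 and 4 without replicate 3, and 1, 0 and 2 without P14 KO replicates 1, 2 and 3.

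In adult KO, 1 of 17 tested genes of that list passed (5.88%, against 0.39% of all genes), Actc1, which fell by 0.79 ± 0.14 (adjusted p = 0.0494). That call held only without P90 KO replicate 1 (0.0173). It was lost without P90 CTRL replicates 1 (0.0921), 2 (0.0592) and 3 (0.154) and without P90 KO replicates 2 (0.225) and 3 (0.0702). Actc1 was 30004, 35794 and 30226 CPM in P14 CTRL and 14270, 14706 and 7789 CPM in P14 KO, and 24808, 19246 and 21420 CPM in P90 CTRL and 15380, 11815 and 10526 CPM in P90 KO. Like Tnnc1, it was lower in every KO sample than in any CTRL sample of its stage. Between CTRL stages, 5 of 17 passed (29.4%, against 29.3% of all genes): Tmod4 and Acta1, the skeletal actin gene, rose by 1.38 ± 0.13 (0.000215) and 2.01 ± 0.37 (0.00466) on the log2 scale, while Actc1 fell by 0.55 ± 0.13 (0.0116), Tnni2 fell by 1.79 ± 0.35 (0.00573) and Tpm4 fell by 1.08 ± 0.28 (0.0196). The number called was 3 without P90 CTRL replicate 3.

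**Figure D4:**
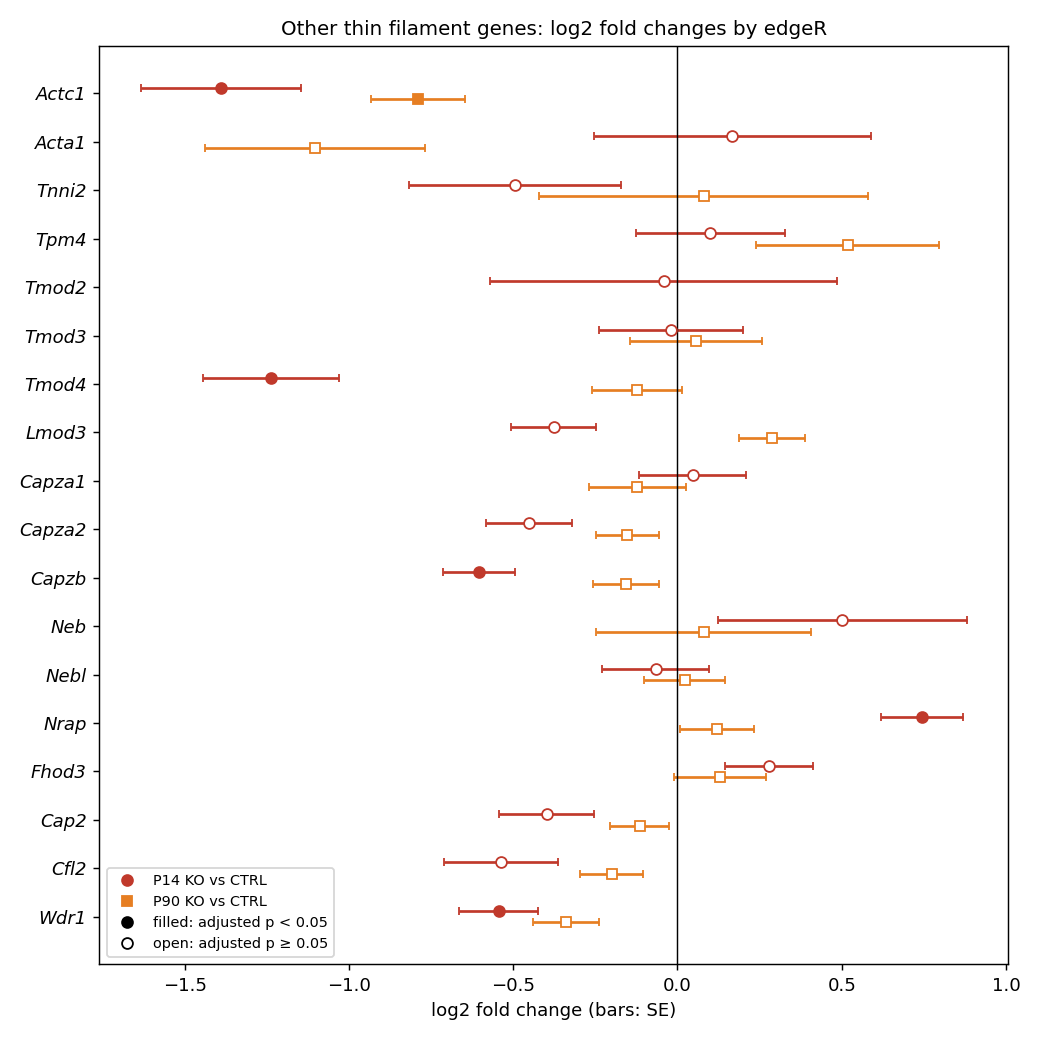
Points give edgeR log2 fold changes (x axis) with their SE for the listed thin filament genes tested in at least 1 KO comparison (y axis), n = 3 per group; filled points passed an adjusted p under 0.05. Actc1 is filled at both stages (-1.39 and -0.79), Tmod4, Capzb and Wdr1 on the left and Nrap on the right in neonatal KO.

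Genes whose log2 CPM followed that of Tnni1 and Tnni3 most closely were looked up as a description. Over the 12 samples, which share the stage and genotype groups, Tnni1 was most like Lamc1 (Pearson r = 0.992), Lrrfip1 (0.992) and Nelf (0.991). Tnni3 was most like Pdrg1 (0.988), Iscu (0.985) and Mrps7 (0.979) over the same 12 samples. Most of these points' spread lies between the groups, so the values describe a shared pattern across 4 groups.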

How the data were processed

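CMs were sorted by flow cytometry, and cDNA was amplified with SMART-Seq v4, made into Nextera XT libraries and sequenced single-end. Per the submitters' processing notes, CASAVA 1.8, STAR 2.5.3a and Subread 1.5.2 (featureCounts) with mm10 were used. The authors deposited raw counts per gene in 2 tables, 1 per stage; strand setting and treatment of multiply mapped reads are not given in the sources used here.

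edgeR 4.0.16 in R 4.3.3 was used on the counts. After filterByExpr and TMM scaling, glmQLFTest gave p-values, which were adjusted by Benjamini-Hochberg over all genes kept and called under 0.05. Each KO comparison used the 6 samples of its stage, the CTRL comparison the 6 CTRL samples, and the neonatal minus adult KO effect all 12. An SE is the absolute log2 fold change divided by the square root of F. The test was checked on simulated counts. Alternatives were DESeq2 1.42.0, RLE size factors, no filter on low counts, a replicate block, all 12 samples in one fit (for the KO effect difference, genes kept in both stages) and leaving out each library. Printed levels are CPM with 12-sample TMM factors, divided by summed exon length where genes are compared. Ratios were compared by exact two-sided permutation tests over samples. For the KO effect difference of a ratio, labels were shuffled within each stage, so the reference is no KO effect at either stage.

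Genes named are the 10 members, Srf, the list of other thin filament genes, cell type markers, and the 3 genes most correlated with Tnni1 and with Tnni3 among those with at least 5 CPM on average (prior count 2). The genes and lists were chosen with earlier results of these data known. Fibroblast markers summed to 168 to 300 CPM in P14 KO and 45.9 to 62.8 CPM in P90 KO, and endothelial markers to 117 to 250 CPM over all samples. Promoter sequences are from RefSeq, where all 10 genes matched.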

Additional observations from a re-analysis of the deposited data

Results flagged for a closer look

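For 2 genes the effect of Srf KO differed between the stages by edgeR's test of the difference itself over all 12 samples: 1 of the 10 genes and 1 of 19 tested genes of the other thin filament list (5.26%), against 228 of 12841 genes (1.78%). For Tnni3, the neonatal minus adult log2 KO effect was -0.85 ± 0.19 (SE, adjusted p = 0.0437), lower in 3 of 3 KO samples than in any CTRL sample at P14 and higher in 3 of 3 at P90. Over the other fits its adjusted p ranged from 0.00042 to 0.123. For Tmod4, a tropomodulin of skeletal muscle, the difference was -1.10 ± 0.25 (adjusted p = 0.0468), with a fall of 1.24 in neonatal KO and a log2 fold change of -0.12 in adult KO. Its adjusted p ranged from 0.0017 to 0.130 over the other fits, and the call was lost in 9 of 12 fits without a library, all except those without P14 CTRL replicate 1 (0.0485), P14 CTRL replicate 3 (0.0413) and P90 KO replicate 3 (0.0425).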

How the results depend on the processing

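The cause of the changes below was not tested. Fits that leave out a library also have fewer samples. Among the 10 genes, the number called in adult KO (1) was 2 with DESeq2, 3 with no filter on low counts and 0 with all 12 samples in one fit, and that for the KO effect difference (1) was 5, 2 and 3 with DESeq2, RLE size factors and no filter. In the other thin filament list, the neonatal count (5) was 9 with all 12 samples in one fit, the adult count (1) was 2, 3 and 0 with DESeq2, no filter and all 12 samples, and the count for the difference (1) was 4, 2 and 2 with DESeq2, RLE and no filter. Leaving out a library gave 1 to 5 (neonatal), 0 to 1 (adult), 3 to 6 (CTRL stages) and 0 to 2 (difference) of the 10 genes, and 0 to 5, 0 to 1, 3 to 6 and 0 to 2 of the list. Over all genes, the counts of 1078, 46, 3607 and 228 became 1832, 343, 3870 and 916 with DESeq2. With no filter they became 1281, 701, 3884 and 474, with all 12 samples 2088, 3 and 4717, and without a library 111 to 1004, 6 to 51, 2067 to 4768 and 4 to 377.

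Values near 0 changed sign. For the KO effect difference, Tpm3 was -0.011, -0.0080 and -0.017 and Tmod1 -0.0057, -0.0056 and -0.015 with DESeq2, RLE and no filter. Without a library, the log2 ranges were -0.042 to 0.050 for Tmod1 in neonatal KO, -0.028 to 0.067 in adult KO and -0.055 to 0.056 for the difference, -0.074 to 0.11 for Tnnt2 between CTRL stages, and for the difference -0.37 to 0.29 for Srf, -0.16 to 0.25 for Tpm3, -0.060 to 0.22 for Lmod2 and -0.043 to 0.21 for Lmod2 to Tmod1. Likewise the adult KO difference was -0.00204 to 0.00047 percentage points for the Tnni1 share and -0.012 to 0.081 for troponin I to troponin T, and that between CTRL stages was -0.0207 to 0.00204 percentage points for the Tpm3 share. Tnni1 at P90, with 1 to 7 counts, is limited by depth.

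Whether replicate numbers pair the samples was checked by the correlation of deviations from the group means. It was 0.047, 0.148 and 0.360 for numbers 1 to 3 at P14 and 0.181, -0.00034 and 0.0540 at P90. Samples of different numbers had -0.241 to 0.151 at P14 and -0.253 to 0.1725 at P90. These values do not decide whether the numbers mark a pairing, and the main fits used none. A fit with the replicate block called 5, 2, 4 and 4 of the 10 genes in neonatal KO, adult KO, CTRL stages and difference, 7, 3, 3 and 4 of the list, and 1529, 655, 3139 and 687 of all genes. Not every sample correlated best with its own number.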
